A study of Mus musculus with 8 samples.

Results

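Hypoxic cancer-associated fibroblasts (CAFs) of subcutaneous B16F10 melanomas are described here. B16F10 is a mouse melanoma cell line, and CAFs are the collagen-producing stromal cells of a tumour. From all 8 libraries, barcodes were kept that had 200 to 5000 detected genes and at most 7.5% of their unique molecular identifiers (UMIs, 1 per captured mRNA molecule) from mitochondrial genes. They also had at least 10 UMIs of Col1a1, Col1a2, Col3a1 and Dcn together and under 0.3% of UMIs from the melanoma genes Mlana, Pmel, Dct, Tyr and Tyrp1. Barcodes with 3 or more UMIs of Rgs5, Kcnj8 and Notch3 (perivascular cells), 2 or more of Pi16, Clec3b and Ptx3 (adventitial-type fibroblasts), or 3 or more of Mmp13, Cxcl14, Cilp and Lrrc15 (matrix CAFs) were set aside. The hypoxic fibroblasts were those of the remaining cells with at least 3 UMIs of Pgf, Ndrg1 and Ero1l together. There were 160 of them among 284 gated fibroblasts, 595 cells past the collagen and melanoma limits, 28411 barcodes past the gene and mitochondrial limits and 41925 barcodes in all. The other 124 gated fibroblasts had under 3 UMIs of the 3 genes. The cells are called hypoxic for these genes, and oxygen itself was not measured.

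The study asked what the transcription factor ATF4 of the host does in the stroma of these tumours. Every host carried Rosa26::CreERT2, a tamoxifen-inducible Cre recombinase expressed from a locus that is active in nearly all tissues, and every host was given tamoxifen. All were on a C57BL/6 background by the methods of the study. The 4 Atf4 WT/WT hosts had intact Atf4 genes, and the 4 Atf4 Δ/Δ hosts had Atf4 fl/fl alleles that Cre had cut in the whole host, not in fibroblasts alone. The injected melanoma cells kept their own Atf4. The labels give an age of 12 weeks and a large tumour for all hosts, with 1 tumour and 1 library each, 2 males and 2 females in the WT group and 3 males and 1 female in the KO group. The libraries held 37283598 to 74942137 UMIs.

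When oxygen is short, the prolyl hydroxylases that mark the α subunits of hypoxia-inducible factor (HIF) for destruction work poorly. HIF then accumulates and binds letters such as ACGTG in hypoxia response elements of its target genes. Known targets raise glucose uptake and glycolysis, limit the use of oxygen by mitochondria, and produce angiogenic ligands. Of the 3 selecting genes, Pgf encodes placental growth factor, a ligand of the VEGF receptor Flt1, Ndrg1 encodes a stress-induced cytoplasmic protein, and Ero1l (Ero1a in RefSeq) encodes an oxidase that drives disulphide bond formation in the endoplasmic reticulum (ER). All 3 are known to respond to low oxygen. On GRCm38, Pgf lies at chr12:85166635-85177790, Ndrg1 at chr15:66929318-66969640 and Ero1l at chr14:45283087-45318771, all on the minus strand.

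To show letters that HIF is known to bind, the RefSeq promoter windows (GRCm38.p6, 250 bases before to 50 after a start) were searched for ACGTG. Both strands were searched, and the match on the other strand reads CACGT. Other forms of the HIF motif were not searched. The E-box CACGTG, bound by other factors, holds both and was counted as 2 overlapping matches. Of the 39 genes of the glycolysis and HIF feedback lists that were described below, 34 had a window and 26 of those (76.5%) held a match in at least 1, against 21.8% of all 27025 genes of the table. These lists were compiled as known HIF targets, so the share is a description of the lists. Of the 25 genes with the highest ratios in hypoxic fibroblasts 17 had a window and 9 of these (52.9%) held a match, and of the 15 with the lowest ratios 11 had a window and 2 (18.2%) held a match. Neither window of Pgf held ACGTG or CACGT, the only letters searched. The stretches around the match nearest to the start are printed for 6 genes that carry the results below, 5′ to 3′ on the strand of the gene, with each match in capitals.
Ero1l, chr14:45318606-45318660, minus strand: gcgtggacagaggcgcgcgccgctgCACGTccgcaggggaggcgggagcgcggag
Slc2a1, chr4:119108684-119108738, plus strand: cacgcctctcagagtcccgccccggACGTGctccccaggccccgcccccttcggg
Pgk1, chrX:106186944-106186998, plus strand: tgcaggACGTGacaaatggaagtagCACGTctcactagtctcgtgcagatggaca
Ldha, chr7:46845745-46845799, plus strand: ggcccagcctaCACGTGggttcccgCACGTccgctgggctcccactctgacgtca
Bnip3, chr7:138909584-138909638, minus strand: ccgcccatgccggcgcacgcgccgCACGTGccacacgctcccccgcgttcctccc
Egln3, chr12:54204074-54204124, minus strand: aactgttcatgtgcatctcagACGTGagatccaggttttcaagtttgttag
The match nearest to the start began 63 bases before it in Ero1l, 36 in Slc2a1, 34 in Ldha, 107 in Bnip3, 131 in Pgk1 and 229 in Egln3.

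The 3 selecting genes were first described in the cells they chose, with no test. The sum of the 3 genes ran from 3 to 68 UMIs per hypoxic fibroblast with a median of 8. All 3 genes were detected in 87 of the 160 cells (54.4%), Ndrg1 and Ero1l without Pgf in 46, and Pgf and Ero1l without Ndrg1 in 9. In 10 cells Ero1l alone and in 4 cells Ndrg1 alone reached the threshold, and 4 cells had Pgf and Ndrg1 only. Ero1l was thus found in 152 of the 160 cells, Ndrg1 in 88.1% and Pgf in 62.5%. In the other gated fibroblasts Pgf was found in 7.26% of cells, Ndrg1 in 15.3% and Ero1l in 29.0%. At the threshold itself, 15 cells had a sum of 3 and 22 cells just outside had a sum of 2, with 32 more at 1 and 70 at 0.

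Pgf, Ndrg1 and Ero1l RNA of melanoma cells could also reach these droplets. In hypoxic fibroblasts 0.0543% of UMIs came from the 5 melanoma genes, against 0.0594% in the other gated fibroblasts and 1.52% in melanoma cells. At that share, free melanoma RNA would account for 0.484 of the 506 Pgf UMIs, 1.65 of the 736 Ndrg1 UMIs and 11.7 of the 932 Ero1l UMIs in hypoxic fibroblasts. In CPM, the UMIs of a gene per 1000000 UMIs of the cells, Pgf was at 607 in hypoxic fibroblasts, 21.7 in other gated fibroblasts, 193 in perivascular cells and 13.7 in melanoma cells.

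Fibroblast markers outside the rule were abundant. Sparc, a collagen-binding matrix glycoprotein, was at a mean of 8929 CPM in hypoxic and 11287 CPM in other gated fibroblasts over the 5 tumours with at least 10 cells of each kind, and Postn, which encodes periostin, at 1422 and 1857 CPM. The 18 fibroblast markers outside the rule summed to 17435 CPM in hypoxic fibroblasts and 509 CPM in melanoma cells. Markers of other cells were low in hypoxic fibroblasts: 12 macrophage markers summed to 63.6 CPM with Csf1r the most abundant at 20.4 CPM and 3 at 0, and 11 endothelial markers to 64.8 CPM with Flt1 the most abundant at 43.2 CPM and 7 at 0. The 9 T and NK cell markers summed to 8.39 CPM with 7 at 0, the 7 keratinocyte markers to 13.2 CPM with 6 at 0, and all 6 erythroid markers were at 0. The pericyte markers other than the 3 of the gate summed to 125 CPM, of which Cox4i2 made up 89.9 CPM. The 6 adipocyte markers summed to 108 CPM, of which Lpl made up 88.7 CPM, the 5 Schwann cell markers to 12.0 CPM, and the melanoma markers other than the 5 of the gate to 278 CPM, against 5146 CPM in melanoma cells. The part of other cells in the results was not tested.

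Hypoxic fibroblasts were deeper than the others, with a median of 4821 UMIs per cell against 3772, and mitochondrial genes took a median of 1.96% against 2.92% of UMIs. Since a threshold in UMIs favours deep cells, every cell was also thinned to 2000 UMIs, which left out 5 hypoxic and 27 other cells with fewer. At equal depth, hypoxic fibroblasts had a median of 1014 detected genes and the others 1063. Of the 28411 kept barcodes, 192 occurred in 2 or more libraries, of which 1 was a hypoxic fibroblast, and no barcode was shared between hypoxic fibroblasts. No doublet caller was run.

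Other hypoxia genes, which the rule did not use, were read in the same cells. The UMIs of the glycolysis and HIF feedback lists, per 10000 UMIs of a cell, had a median of 251 (quartiles 198 and 301) in hypoxic fibroblasts and 116 (quartiles 63.7 and 180) in the others, and 5 of the 124 other cells lay above the median of the hypoxic ones. The level of these lists, summed over cells, was higher at each step in the sum of the 3 genes. It was 10145 CPM in cells with a sum of 0, 14825 CPM at 1, 15498 CPM at 2, 19778 CPM at 3, 21375 CPM at 4, 22041 CPM at 5 to 9 and 28414 CPM at 10 or more. Since the same cells were split and the steps share depth and library, these values are a description.

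**Figure D1:**
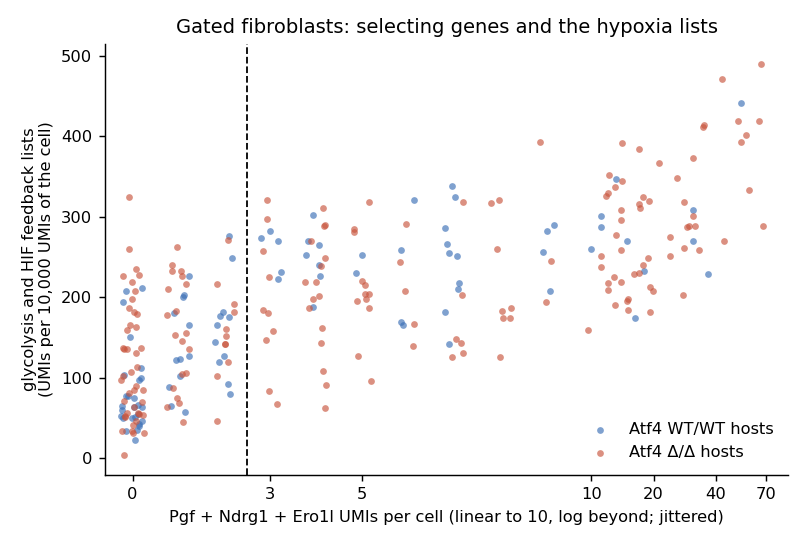
Each point is 1 of the 284 gated fibroblasts, by its UMIs of Pgf, Ndrg1 and Ero1l (x, linear to 10 and logarithmic beyond, jittered) and its UMIs of the glycolysis and HIF feedback lists per 10000 UMIs (y). Blue points are from Atf4 WT/WT and red points from Atf4 Δ/Δ hosts, the dashed line is the threshold of 3 UMIs, and the median is 116 on its left and 251 on its right.

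For genes, the 143 hypoxic and 97 other gated fibroblasts of the 5 tumours with at least 10 of each (WT replicates 3 and 4, KO replicates 1, 2 and 4) were summed per tumour, and the log2 ratio of CPM + 5 between the 2 kinds was averaged over tumours. The other 17 hypoxic fibroblasts were in tumours with too few cells. Of 3623 genes with at least 50 UMIs, 288 (7.95%) were higher in hypoxic fibroblasts in all 5 tumours and 243 (6.71%) were lower in all 5, and the median ratio over all genes was 0.00 (log2). All ratios below are descriptions of cells that the rule split. A ratio printed with ± is the mean ± SD over the 5 tumours.

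All 22 described genes of glucose uptake and glycolysis lay above 0, 16 of them in every tumour, with a median log2 ratio of 1.19. Slc2a1, which encodes the glucose transporter GLUT1, was at 527 and 323 CPM in WT replicates 3 and 4 and at 628, 419 and 508 CPM in KO replicates 1, 2 and 4, against 96.5, 135, 123, 73.6 and 107 CPM in the other fibroblasts of the same tumours. The lowest of its hypoxic values thus exceeded the highest of the others, and the log2 ratio was 2.11 ± 0.50. Among the glycolytic enzymes, Gapdh had a ratio of 1.08 ± 0.36, Pgk1 of 1.07 ± 0.45, Pkm of 0.97 ± 0.40, Tpi1 of 0.81 ± 0.46 and Ldha, which makes lactate, of 0.62 ± 0.51. Slc2a3, a second glucose transporter gene, had 66 UMIs in hypoxic and 3 in other fibroblasts.

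The HIF feedback and adaptation list behaved alike, with all 17 described genes above 0, 13 of them in every tumour, and a median of 1.32. Egln3, one of the HIF prolyl hydroxylases and itself a HIF target, was at 141, 119, 199, 96.7 and 126 CPM in the 5 tumours and at 13.8, 0, 0, 18.4 and 38.3 CPM in the other fibroblasts. Bnip3, which directs mitochondria to degradation, had a ratio of 2.06 ± 0.78 and was at 306 to 538 CPM against 55.2 to 199 CPM. Hilpda, a lipid droplet protein gene, had a ratio of 2.09 ± 0.80, Fam162a of 1.32 ± 0.57 and Mif, which encodes a cytokine, of 0.72 ± 0.37. Over both lists, 29 of 39 genes were higher in every tumour, and the median of the 39 ratios was 1.68 in WT replicate 3, 0.92 in WT replicate 4, 1.05 in KO replicate 1, 1.34 in KO replicate 2 and 0.79 in KO replicate 4. Hif1a, whose product is mainly controlled at the protein level, had a ratio of 0.18 ± 0.59 and was higher in 3 of 5 tumours.

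Angiogenic ligands followed, with 11 of 12 described genes above 0, 4 of them in every tumour, and a median of 1.04. Vegfa, the main endothelial growth factor gene, was at 949 and 543 CPM in WT replicates 3 and 4 and 685, 537 and 637 CPM in KO replicates 1, 2 and 4, against 67.4 to 176 CPM in the other fibroblasts, a ratio of 2.59 ± 0.73. Adm, which encodes the vasodilator adrenomedullin, was at 102 to 236 CPM against 0 to 73.6 CPM (2.90 ± 1.02), and Apln, which encodes the ligand of the apelin receptor, at 107 to 170 CPM against 0 to 67.4 CPM (2.46 ± 1.44). Angptl4 had a ratio of 1.66 ± 0.50. Cxcl12 had a ratio of 0.24 ± 0.36 and Il6, the lowest, of -0.40 ± 1.28.

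Apart from these groups, the 22 highest ratios outside the selecting genes included several of other kinds. Nos2, the gene of inducible nitric oxide synthase, had the highest at 3.92 ± 0.63, with 107 UMIs in hypoxic and 2 in other fibroblasts. It was detected in 21.9% against 1.61% of cells. In the other fibroblasts of WT replicates 3 and 4 and KO replicates 1 and 2 it was at 0 CPM. The size of such a ratio depends on the 5 CPM added. Over all 3623 genes, 317 had a ratio of at least 1 and 112 of at most -1. Fam117b followed at 3.89 ± 0.83 and Mgarp, a mitochondrial protein gene, at 3.46 ± 1.32, with 2.79 and 1.70 as their lowest values under the alternative settings. Cox4i2, the form of cytochrome oxidase subunit 4 that replaces Cox4i1 at low oxygen, had a ratio of 2.95 ± 1.46, which was 1.58 under the lowest of these settings, while Cox4i1 had -0.03 ± 0.26. Il33, an alarmin of the interleukin 1 family, had many UMIs: 1066 and 628 CPM in WT replicates 3 and 4 and 1505, 2075 and 1838 CPM in KO replicates 1, 2 and 4, against 165 to 442 CPM, a ratio of 2.43 ± 0.59. Cryab, a small heat shock protein gene, was at 344 to 1083 CPM against 61.3 to 239 CPM (2.60 ± 1.36), and Areg, an EGF receptor ligand gene, had 57 and 10 UMIs (3.09 ± 1.72). H2-Ab1, a gene of MHC class II, had 175 and 11 UMIs (2.66 ± 0.98) and was found in 55.6% of hypoxic and 8.06% of other fibroblasts. The macrophage markers beside it summed to 63.6 CPM against 23.8 CPM, and their part in the H2-Ab1 level was not tested. The rest of the 22 were Krt19, Selenbp1, Ddx42, Pim3, Jarid2, Tspan5, AA467197, Dusp5 and Tigd2, with ratios of 2.36 to 3.08. Under the lowest of the alternative settings, AA467197 was at 0.86, Dusp5 at 1.17, Jarid2 at 1.25 and Cryab at 1.62.

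**Figure D2:**
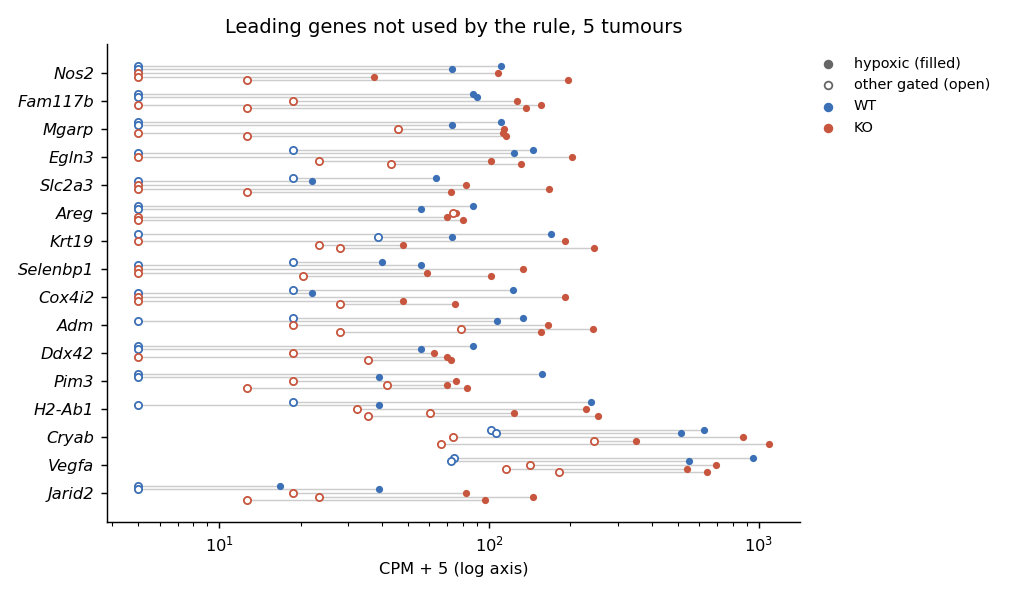
CPM + 5 (log axis) of 16 leading genes that the rule did not use, in hypoxic (filled) and other gated fibroblasts (open) of 5 tumours, joined per tumour, with WT tumours in blue and KO tumours in red. Filled points lie to the right of their open partner in every tumour, by definition of the genes shown, and many open points sit at 5, which is a CPM of 0.

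Collagen and basement membrane genes were at the other end. Of 14 described collagen chains other than the 3 of the gate, 3 lay above 0 and 6 were lower in every tumour, with a median of -0.55. Col4a1, a basement membrane chain, was at 269, 33.9, 416, 580.5 and 295.6 CPM against 510, 1247, 601, 1840.4 and 1365 CPM (-2.06 ± 1.77). Its ratio was -1.32 without WT replicate 4, and -0.91 at a threshold of 5 UMIs, which also left out WT replicate 4. Col6a3 had a ratio of -0.96 ± 0.46 and Col6a1 of -0.72 ± 0.25. Among the gate genes, Col1a1 was at 11671 CPM over all hypoxic and 12164 CPM over all other gated fibroblasts. Smoc2, a matricellular gene, had the lowest ratio of the genes with 1 sign in all 5 tumours (-2.76 ± 1.27), with Gas6, a ligand of TAM receptors, at -2.53 ± 0.90, the leucine-rich proteoglycan Aspn at -2.32 ± 1.25, the globin Cygb at -2.03 ± 0.64, the laminin chain Lama2 at -1.85 ± 0.77, the eosinophil chemokine Ccl11 at -1.77 ± 1.22 and the WNT modulator Sfrp2 at -1.74 ± 1.23. The remaining low genes were Tppp3, Lrrc17, Taf15, Ogn, Trappc3, Igfbp4 and Mbnl1, with ratios of -2.12 to -1.77. Most of these were much nearer 0 under some alternative settings or without single tumours. Their weakest values were -0.65 for Taf15, -0.89 for Ogn and Tppp3, -0.98 for Igfbp4, -1.05 for Trappc3, -1.13 for Mbnl1 and -1.68 for Lrrc17.

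Of the enzymes that modify collagen, Lox, which crosslinks collagen, was higher in every tumour (0.69 ± 0.26), as was P4ha1, a subunit of the collagen prolyl hydroxylase (0.96 ± 0.63), while the median of the 19 described genes was -0.02 and Ppib was lower in every tumour (-0.27 ± 0.20). Timp1, an inhibitor of matrix proteases, had a ratio of 1.16 ± 0.58 within a list with a median of -0.10. Of 32 nuclear-encoded respiratory chain genes 7 lay above 0, with a median of -0.24. The ER chaperones had a median of -0.14 with Calr lower in every tumour (-0.47 ± 0.20), and the 21 described genes of the integrated stress response (ISR), the pathway that ATF4 executes, had a median of 0.04 and split in both directions. Eif4ebp1, a brake on translation, was higher in every tumour (1.21 ± 0.38), as was Vldlr (2.01 ± 0.73), and Atf3 was at -1.85 ± 1.64.

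The contractile list had a median of -0.03, but Acta2, which encodes smooth muscle actin, was lower in hypoxic fibroblasts of every tumour (-1.45 ± 0.92). Of the pericyte genes, Rgs5 had 0 UMIs in hypoxic and 8 UMIs in other gated fibroblasts, and Notch3 had 5 and 14 UMIs. The pericyte markers outside the gate summed to 125 and 167 CPM. Among them Cox4i2, the low-oxygen form named above, had 75 and 8 UMIs and made up 89.9 of the 125 CPM. The sums thus understate how much lower the other pericyte markers were in hypoxic fibroblasts. The part of pericyte genes in the Acta2 level was not tested. The 16 inflammatory mediators had a median of 0.02, with Il33 and Ccl11 at their ends and Ccl2, a monocyte chemokine, lower in every tumour (-0.80 ± 0.65). The proteoglycans had a median of -0.09, proliferation genes of 0.30, interferon response genes of -0.13 and fibroblast markers of -0.31. The median of the proliferation list was negative under all 5 alternative settings, at -0.85 to -0.38, each of which also changed the tumours compared. The medians of the collagen hydroxylation, proteoglycan, protease, contractile, inflammatory, ISR and interferon lists also changed sign under at least 1 of these settings.

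**Figure D3:**
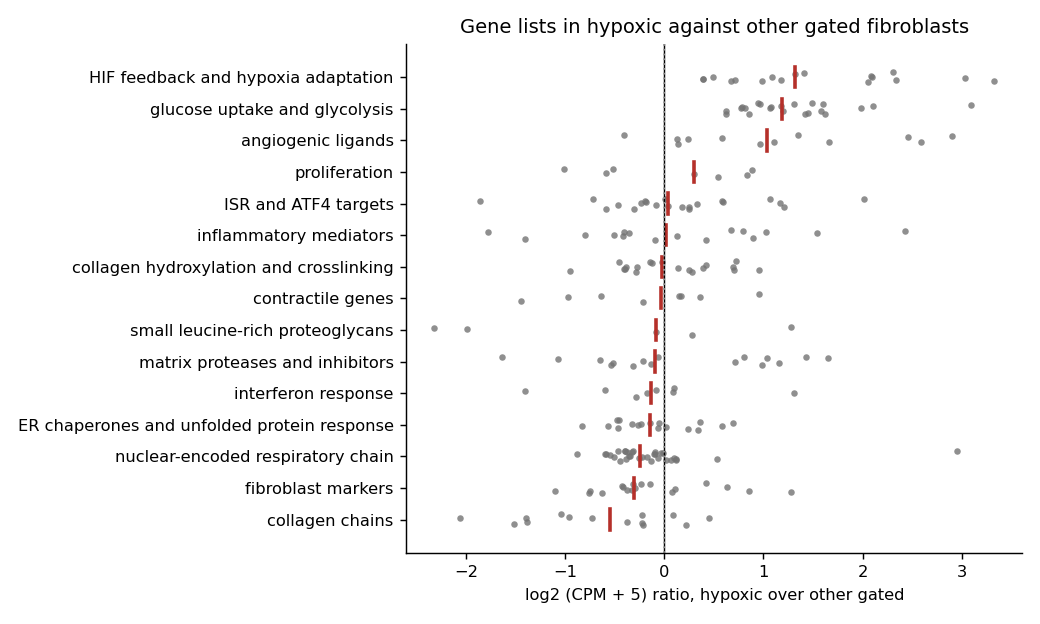
Each grey point is a gene of the named list, placed by its log2 ratio of CPM + 5 between hypoxic and other gated fibroblasts (mean of 5 tumours), and red bars are list medians. The HIF feedback, glycolysis and angiogenic lists have medians of 1.04 to 1.32, and the collagen chains the lowest at -0.55.

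Fibroblasts outside the gate were split by the same threshold as a separate set of cells. Of the 311 matrix, adventitial-type and perivascular cells, 80 had at least 3 UMIs of the 3 genes. By kind, with some cells in more than 1, these were 28.2% of matrix cells (35 of 124, exact 95% interval 20.5% to 37.0%), 26.8% of adventitial-type cells (49 of 183, 20.5% to 33.8%) and 8.82% of perivascular cells (3 of 34, 1.86% to 23.7%). These intervals cover counting error only. Both sides had at least 10 cells in 2 tumours, KO replicates 1 and 4. There 37 of the 39 glycolysis and HIF feedback genes lay above 0, with a median log2 ratio of 1.14. Over all 4313 genes with enough UMIs the median was -0.06, and 44.9% lay above 0. These 2 tumours were also among the 5 in which the leading and low genes were chosen. Of the 22 leading genes, 21 lay above 0 there, among them H2-Ab1 at 2.79, Krt19 at 2.46, Egln3 at 2.33, Apln at 2.27, Vegfa at 1.38 and Il33 at 1.25, and Cox4i2 was at -0.08. Nos2 had a ratio of 0.63 there, and Areg and Adm of 0.33 and 0.65. Of the 15 low genes 13 lay below 0.

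The share of hypoxic cells was then compared between hosts. They made up 9 of 20 gated fibroblasts in WT replicate 1 (45.0%), 5 of 18 in replicate 2 (27.8%), 16 of 32 in replicate 3 (50%) and 13 of 23 in replicate 4 (56.5%). In KO tumours they were 33 of 52 in replicate 1 (63.5%), 18 of 36 in replicate 2 (50%), 3 of 6 in replicate 3 (50%) and 63 of 97 in replicate 4 (64.9%), so that KO replicate 4 supplied 39.4% of all hypoxic fibroblasts. The genotypes overlapped. Leaving out KO replicate 3, which had fewer than 10 gated cells, the mean share was 44.8% ± 12.3 (SD, n = 4) in WT and 59.5% ± 8.23 (n = 3) in KO tumours, a difference of 14.6 percentage points that did not pass an exact two-sided permutation test (p = 0.171, 35 assignments, smallest possible p 0.0571). The difference was 7.57 points at a threshold of 2 UMIs and 8.96 points without WT replicate 2.

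**Figure D4:**
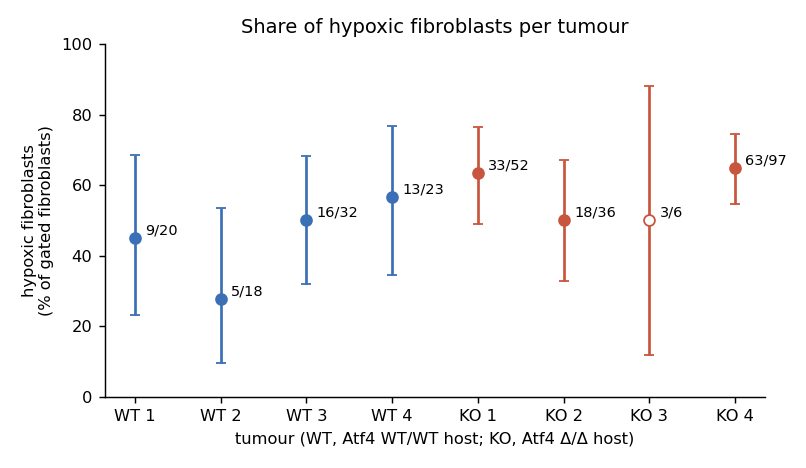
Share of hypoxic fibroblasts among gated fibroblasts (%) per tumour, with exact 95% binomial intervals, numbers of cells beside the points, WT in blue and KO in red. The open point, KO replicate 3, rests on 6 cells, and every KO interval overlaps every WT interval except those of KO replicate 4 (54.6% to 74.4%) and WT replicate 2 (9.69% to 53.5%). The intervals cover counting error within a tumour only, so that their overlap is no test of the genotypes.

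Whether the share followed the hypoxia of the melanoma cells around them was asked over the same 7 tumours. The glycolysis and HIF feedback lists were at 20957, 26025, 18802 and 17234 CPM in melanoma cells of the WT tumours and at 26243, 18511 and 28503 CPM in those of KO replicates 1, 2 and 4. Pearson's r with the share was 0.11 (exact permutation p = 0.872) and Spearman's rho 0.31 (exact permutation p = 0.512), 1 relation computed with these 2 measures. Without the 2 tumours farthest from the median in melanoma hypoxia, KO replicates 1 and 4, r was -0.99 over 5 tumours, so that the relation rested on those tumours and no direction can be read. Within a genotype there were 4 and 3 tumours, and no coefficient was computed. Among WT tumours the share fell as the melanoma level rose, from 56.5% at 17234 CPM to 27.8% at 26025 CPM. Among KO replicates 1, 2 and 4 the share rose with it, from 50% at 18511 CPM to 64.9% at 28503 CPM. These opposite orders were not tested.

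Expression within hypoxic fibroblasts was compared between hosts in WT replicates 3 and 4 and KO replicates 1, 2 and 4, the tumours with at least 10 such cells. Of 1627 genes tested with edgeR, 4 (0.246%) passed an adjusted p of 0.05, 3 higher and 1 lower in KO tumours, with Cck and Malat1 among the higher and Acta2 the lower, and 115 had an unadjusted p under 0.05. The number that passed was 9 without WT replicate 3, which left 1 WT tumour that was assumed to vary like the KO tumours, 2 without KO replicate 1, 0 without KO replicate 2 (116 at an unadjusted p under 0.05) and 9 without KO replicate 4. The genotypes did not overlap for 25.4% of the genes tested, since 2 and 3 tumours were compared. The per-tumour CPM below are raw, and the log2 differences come from the fit with its scaling.

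Atf4 itself, the deleted gene, was read first. It lies at chr15:80255184-80257541 on the plus strand, and the loxP sites flank the exons that hold its coding sequence and 3′ end. Atf4 was at 367, 331, 340 and 255 CPM in hypoxic fibroblasts of WT replicates 1 to 4 and at 192, 140, 261 and 61.8 CPM in KO replicates 1 to 4, where replicate 3 had 3 UMIs. KO replicates 1, 2 and 4 lay below all WT values, and KO replicate 3 just above the lowest of them. The log2 difference was -1.27 ± 0.44 (SE, adjusted p = 0.443) in hypoxic fibroblasts and -1.50 ± 0.30 (adjusted p = 0.0371) in all gated fibroblasts, where Atf4 was at 218 to 303 CPM in other fibroblasts of WT tumours and 36.8 to 148 CPM in those of KO tumours. In all gated fibroblasts Atf4 was lower in KO tumours in all 15 alternative settings but passed in 7 of them, 2 of these among the 7 that left out a tumour, and the highest adjusted p was 0.244, without KO replicate 4. Melanoma RNA at the measured share would give 9.61 of the 133 Atf4 UMIs of hypoxic fibroblasts.

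Cck, which encodes the peptide hormone cholecystokinin, had 0 UMIs in hypoxic fibroblasts of WT replicates 1, 3 and 4 and 1 UMI in replicate 2, and was at 295 CPM (46 UMIs), 408 CPM (38 UMIs) and 314 CPM (117 UMIs) in KO replicates 1, 2 and 4. KO replicate 3, with 3 cells, had 0. Against the limit of 3 UMIs over the 2 WT tumours compared (20.8 CPM), the KO mean of 339 CPM was at least 16.3-fold higher (adjusted p = 0.000882, and 0.0582 without KO replicate 2). Cck was detected in 33 of 117 hypoxic fibroblasts of KO tumours (28.2%) and 1 of 43 of WT tumours. In the other gated fibroblasts Cck was at 109, 19.6, 0 and 101 CPM (4, 1, 0 and 3 UMIs) in WT replicates 1 to 4 and at 13.7, 36.8, 0 and 115 CPM (1, 2, 0 and 15 UMIs) in KO replicates 1 to 4, so that the genotypes overlapped there. It was found in 7 of 74 of these cells of KO tumours (9.46%) and in 6.85% of melanoma cells. Melanoma cells had 41.9 and 24.1 CPM in WT replicates 1 and 2, 102 and 77.6 in replicates 3 and 4, and 158, 99.7, 21.9 and 132 CPM in the KO tumours, so that the genotypes overlapped there, and melanoma RNA would give 3.59 of the 202 Cck UMIs of hypoxic fibroblasts.

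Acta2 was at 422 and 730 CPM in WT replicates 3 and 4 and at 96.1, 86.0 and 105 CPM in KO replicates 1, 2 and 4, a log2 difference of -2.46 ± 0.32 (adjusted p = 0.00218). In tumours with fewer cells it was at 275 CPM (9 cells) and 124 CPM (5 cells) in WT replicates 1 and 2 and 695 CPM (3 cells, 8 UMIs) in KO replicate 3, so that the groups overlapped once these were counted. With WT replicates 1 and 2 added, the adjusted p was 0.0919 (log2 -2.08), and it was 0.0702 without KO replicate 1 and 0.153 without KO replicate 2. Of the 6 contractile genes tested 5 lay below 0, with a median of -0.93 against 0.02 over all genes tested. Acta2 was the 1 contractile gene that passed. Tagln, which encodes transgelin, was at -1.31 ± 0.43 (adjusted p = 0.424) and the calponin Cnn2 at -1.51 ± 0.32 (adjusted p = 0.0869).

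Malat1, a nuclear noncoding RNA, was at 6851 and 6773 CPM in WT replicates 3 and 4 and 14895, 14405 and 16617 CPM in KO replicates 1, 2 and 4 (1.23 ± 0.18, adjusted p = 0.00415). It stood at 11412 and 11371 CPM in WT replicates 1 and 2, and with these added the adjusted p was 0.539 (log2 0.78). At a threshold of 2 UMIs, at which WT replicate 1 also had enough cells to enter, the difference was 0.58 (adjusted p = 0.963). In melanoma cells Malat1 was at 5825 to 9011 CPM in WT and 5467 to 7968 CPM in KO tumours. Malat1 also lost its call without WT replicate 3 (adjusted p = 0.110), WT replicate 4 (0.147) or KO replicate 2 (0.253), while its log2 difference stayed at 1.16 to 1.29 when single tumours were left out.

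**Figure D5:**
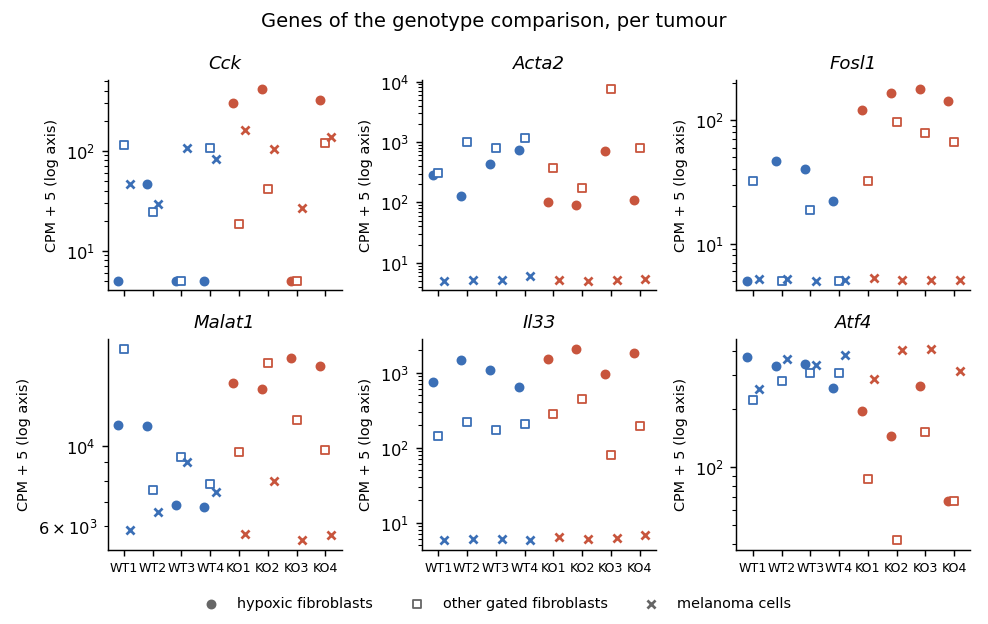
CPM + 5 (log axis) of 6 genes in hypoxic fibroblasts (circles), other gated fibroblasts (squares) and melanoma cells (crosses) of each tumour, WT in blue and KO in red. In hypoxic fibroblasts Cck lies at 295 to 408 CPM in KO1, KO2 and KO4 and at 0 to 41.3 CPM in the other tumours, and KO3 rests on 3 hypoxic and 3 other cells.

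The 3 selecting genes are given within hypoxic fibroblasts as a description, with no test, since the cells were chosen on their sum. Pgf was at 490, 207, 527 and 492 CPM in WT and 845, 484, 86.9 and 626 CPM in KO tumours (log2 difference 0.43), and Ndrg1 and Ero1l had log2 differences of 0.52 and 0.64. In all gated fibroblasts, which were not chosen on them, they were 0.93 ± 0.31, 0.71 ± 0.31 and 1.00 ± 0.28 (adjusted p = 0.323, 0.508 and 0.174). Of 15 alternative settings there, Pgf and Ndrg1 passed in 1 and Ero1l in 2. When every gene with a count was tested, all 3 passed (adjusted p = 0.00474, 0.0298 and 0.000114 with edgeR). Ero1l also passed with the replicate block (1.36, adjusted p = 0.00309). The same 3 genes define the share of hypoxic cells, so their levels over all gated fibroblasts are no separate evidence beside that share. Of 18 glycolysis genes tested in hypoxic fibroblasts 8 lay above 0 with a median of -0.09, of 13 HIF feedback genes 6 with a median of -0.01, of 8 angiogenic ligands 3 with a median of -0.19 and of 12 ISR genes 5 with a median of -0.11, against 0.02 over all 1627 genes. None of these 51 passed.

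No inflammatory gene passed in hypoxic fibroblasts alone. Of 13 inflammatory mediators 11 lay above 0, with a median of 0.89 against 0.02 over all genes tested, and 7 had an unadjusted p under 0.05, against 115 of all 1627 genes. Il33 was at 734, 1447, 1066 and 628 CPM in WT and 1505, 2075, 956 and 1838 CPM in KO tumours, a difference of 1.12 ± 0.26 (adjusted p = 0.171), and in all gated fibroblasts of 1.31 ± 0.19 (adjusted p = 0.00287), or 1.14 with KO replicate 3 added (adjusted p = 0.214). The differences were 0.89 ± 0.28 for Ccl2, 1.72 ± 0.55 for Ccl8, 2.19 ± 0.65 for Cxcl2, 1.46 ± 0.54 for C3 and 1.38 ± 0.49 for Saa3, with adjusted p of 0.395 to 0.474. Ecm1 had a difference of 1.49 ± 0.35, B2m, the light chain of MHC class I, of 1.46 ± 0.35 and Crip1 of -1.01 ± 0.24 (each adjusted p = 0.171). Of 16 collagen chains, the 3 of the gate included, 13 lay above 0 with a median of 0.22.

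All gated fibroblasts, hypoxic and other, were compared in 7 tumours, leaving out KO replicate 3. Of 2401 genes 11 (0.458%) passed, with 209 at an unadjusted p under 0.05, and the genotypes did not overlap for 8.08%. Higher were 6 genes, among them Cck, Il33, Fosl1 and Hmga2, and the lower 5 were Gt(ROSA)26Sor, AY036118, Acta2, Atf4 and Gm42418. The number was 17 without WT replicate 1, 4 without WT replicate 2, WT replicate 3 or KO replicate 1, and 5 without WT replicate 4 or KO replicate 4. Fosl1, an AP-1 subunit gene, had 1, 1, 4 and 1 UMIs in the 4 WT tumours and 20, 20 and 60 in the KO tumours (2.66 ± 0.43, adjusted p = 0.00865, and 0.0985 without KO replicate 4). Hmga2, a chromatin protein gene, differed by 1.87 ± 0.39 (adjusted p = 0.0473), and by 1.65 to 3.02 when single tumours were left out. Its call held in 3 of 14 alternative settings, and among the 7 that left out a tumour only without WT replicate 3. Gt(ROSA)26Sor, a noncoding transcript of the locus that carries CreERT2 in hosts of both genotypes, had 45 UMIs in WT and 10 in KO tumours (-3.21 ± 0.58, adjusted p = 0.0191). Gm42418 and AY036118 are noncoding genes annotated on opposite strands of the same stretch of chromosome 17. Gm42418 was at 12308, 14076, 12231 and 3245 scaled CPM in WT and 4561, 2798 and 2474 scaled CPM in KO tumours (-1.68 ± 0.35, adjusted p = 0.0473), so that WT replicate 4 lay among the KO tumours. In melanoma cells Gm42418 was at 703 to 1937 CPM in the WT and 614 to 689 CPM in the KO tumours, with no overlap, and the part of melanoma RNA in its difference was not tested. The call of Gm42418 held in 4 of 15 alternative settings, that of AY036118 in 8 of 13 and that of Gt(ROSA)26Sor in 8 of 11. Acta2 differed by -1.55 ± 0.31 (adjusted p = 0.0371), but with KO replicate 3 added, whose 3 other fibroblasts had 101 Acta2 UMIs and 2 UMIs of the pericyte gene Rgs5, the difference was 0.44 (adjusted p = 0.988).

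Whether a host difference was unlike that in the other fibroblasts was tested as an interaction in the 5 tumours with both kinds of cell. Of 1743 genes none (0%) passed, while 87 had an unadjusted p under 0.05 with edgeR and 13 with DESeq2, which also passed none. On simulated counts with known changes, the test recovered 44 of 101 genes at an absolute log2 of 2 and 78 of 99 at 3. Interactions of that size could thus be missed, and the lack of calls does not show that the differences were alike. The smallest p belonged to Rarres2, which encodes chemerin, with hypoxic cells at 2647 and 1935 CPM in WT and 2959, 2483 and 2876 CPM in KO tumours and other cells at 552 and 505 CPM and 1531, 1104 and 1465 CPM (difference of differences -1.15 ± 0.24, adjusted p = 0.816). Next were the metallothionein Mt2 (-1.11 ± 0.26), Cnn2 (-2.17 ± 0.60), Mmp19 (-2.44 ± 0.69), Spp1 (-1.81 ± 0.52), Acta2 (-1.52 ± 0.46), Has1 (2.04 ± 0.61), Lgals1 (-0.72 ± 0.22), Ssr2 (-1.26 ± 0.39) and Pkm (-0.73 ± 0.23), with adjusted p of 0.816 to 0.926. Atf4 had 0.83 ± 0.58 (adjusted p = 0.996). The sums behind this test held 29676 to 372083 UMIs.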

How the data were processed

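Tumours were dissociated and sequenced by the study as 1 droplet 3′ single-cell library each. Per the labels, the deposited files hold UMI counts per gene and barcode, made by the authors with Cell Ranger 3.1.0 on GRCm38, and the labels also name Seurat 3.2.1. No doublet removal was applied here.

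The gate was applied to the counts as deposited. UMIs were summed per tumour over hypoxic and over other gated fibroblasts, and tumours with at least 10 cells of a kind entered a comparison. The description used log2(CPM + 5) for genes with at least 50 UMIs. KO and WT were compared on the summed counts with edgeR 4.0.16 (R 4.3.3; filterByExpr, TMM scaling, quasi-likelihood test, Benjamini-Hochberg adjustment, threshold 0.05), in the design without a replicate block, and with DESeq2 1.42.0 as an alternative. The edgeR comparisons were also run on simulated counts with known changes. For hypoxic fibroblasts, 97 of 106 genes changed by an absolute log2 of 2 were recovered, and 93 of 94 changed by 3. There 15 unchanged genes were called as well. Shares were compared by exact permutation with scipy 1.17.1, with exact (Clopper-Pearson) 95% intervals. The labels name 1 tumour per sample and the same instrument and kit for all, so that no batch could be formed from them. The methods of the study differ from the labels here, with an earlier version of the kit, younger mice and either of 2 sequencers that are not assigned to libraries, and a difference in sequencer was not tested. P-values measure the spread between tumours.

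Members and gene lists were chosen with earlier results of these data known. Named were the selecting and gate genes, Atf4, the 25 highest and 15 lowest ratios with 1 sign in every tumour, the most abundant and the extreme genes of each list, and the genes past the threshold, or the 10 with the smallest p where fewer than 10 passed. Slc2a1, Postn, C3, Ccl8 and Cxcl2 lie outside this rule and were named after their values were seen. Aldoa (2 identifiers), Ccn1 and Ccn2 were not used here, and some genes that the rule names are not reported here. RefSeq promoter windows were matched by symbol, then by synonym. Alternatives changed the UMI threshold, the mitochondrial and melanoma limits, scaling, low-count filter, cell minimum, depth, sex as a covariate, and left out each tumour in turn.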

Additional observations from a re-analysis of the deposited data

Results flagged for a closer look

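In groups of 4 tumours, 17 of which were checked, a value was picked out where its gap to the nearest other exceeded 0.829 of the range, which chance does in about 1 of 20 groups. Hmga2 in all gated fibroblasts of WT tumours stood at 87.4 scaled CPM in WT replicate 3, against 17.5, 16.1 and 26.5 in replicates 1, 2 and 4. Gm42418 in the same cells stood at 3245 scaled CPM in WT replicate 4, against 12308, 14076 and 12231 in replicates 1, 2 and 3.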

How the results depend on the processing

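The median log2 ratio of the glycolysis and HIF feedback lists was 1.20 and became 1.62 after thinning to 2000 UMIs, which also left out WT replicate 4 (1.36 without it and unthinned), with 1.03 to 1.36 when single tumours were left out. The difference in share, 14.6 points, was 7.57 points at a threshold of 2 UMIs (exact permutation p = 0.629) and 8.96 to 19.4 points when single tumours were left out. With matrix, adventitial-type and perivascular cells also counted, 4 WT and 4 KO tumours entered. The difference was then 13.6 points (exact permutation p = 0.0857, smallest possible p 0.0286). The correlation with melanoma hypoxia changed sign at a threshold of 2 UMIs (-0.027), at a melanoma limit of 0.1% (-0.17) and after thinning (-0.10), and ran from -0.27 to 0.74 when single tumours were left out (-0.07 without KO replicate 1). The 4 genes called in hypoxic fibroblasts became 2 at a threshold of 2 UMIs, where WT replicate 1 entered, 14 at 5 UMIs, where WT replicate 3 was the 1 WT tumour, 19 when every gene with a count was tested and 1 with tumours of at least 5 cells, and 0 to 9 when single tumours were left out. A lone WT tumour was assumed to vary like the KO tumours. The 11 genes called in all gated fibroblasts became 5 at the 0.1% melanoma limit, 71 with every gene, 1 with tumours of at least 5 cells and 6 with sex as a covariate, and 4 to 17 when single tumours were left out. Of the interaction, 2 genes passed at a threshold of 2 UMIs, again with WT replicate 3 as the 1 WT tumour, and 1 with every gene, and 0 to 1 when single tumours were left out. Acta2 in all gated fibroblasts turned to 0.44 with tumours of at least 5 cells. Pgf, Ndrg1 and Ero1l selected the cells, so that their interactions are descriptions with no test. That of Ndrg1 was 1.96 and stayed above 0 in all 13 alternative settings, at 0.099 to 3.01. That of Pgf was 0.63, and -3.47 to 1.06 when single tumours were left out, with -3.47 without WT replicate 3. That of Ero1l was -0.20 and turned to 0.083 with DESeq2 and 0.031 with tumours of at least 5 cells, and ran from -0.998 to 1.501 when single tumours were left out, with 1.501 without WT replicate 3 and 0.23 without KO replicate 4. The causes were not tested. Tumours left out, and tumours of at least 5 cells, for the ratios between kinds of cell were alternatives chosen after seeing the data.

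With the replicate number as a block, 25 genes passed in all gated fibroblasts. The difference in share was then 16.4 points (exact sign-flip p = 0.25, the smallest p that these few pairs allow). The KO tumour had the higher share in each pair compared. Deviations of same-numbered tumours correlated by 0.108, 0.0897 and 0.127. Differently numbered tumours were not compared in this way, so the values cannot show whether the numbers mark pairs. For hypoxic fibroblasts alone the block could not be fitted, since both genotypes shared 1 number. The sums behind a test held 29676 to 502486 UMIs.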
